A study of Mus musculus with 14 samples.

Results

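Messages recovered by precipitation of phospho-S6 ribosomes (IP) were compared with the RNA of the whole lysate (input) in the hypothalamus of mice that ate high-fat diet (HFD) over 3 days. The comparison used 8 of the 14 libraries of the series, all those labelled HFD, with 4 IP and 4 input libraries. The other 6 libraries, 3 IP and 3 input, came from mice kept on the control diet for 3 days. They enter only the comparison of the diets, values given for the control diet, and fits over all 14 libraries. All mice were 10-week-old C57BL/6N males with no transgene or deletion named in the labels, and each library stands for a pool of 8 hypothalami. The title of the series gives its subject as activated hypothalamic cells in acute high-fat feeding. The libraries include no precipitate of a control antibody, so RNA that reached the IP without a phosphorylated ribosome cannot be told apart.

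S6, encoded by Rps6, is a protein of the small ribosomal subunit. It is phosphorylated by S6 kinases downstream of the kinase complex mTORC1 and by kinases of the ERK pathway, and this phosphorylation rises in neurons that have been active. An antibody against phosphorylated S6 therefore collects ribosomes, with the messages attached to them, preferentially from active cells. In the hypothalamus the method is used to compare neurons that sense nutrients and control feeding, among them the AgRP and POMC neurons of the arcuate nucleus. Values here are FPKM, the fragments of a gene per length of its transcript and per fragments mapped in the library. The authors name the deposited values normalized, so they may also be scaled between libraries, by a step not examined here. A log2 change is the mean log2(FPKM + 1) in IP minus that in input, given ± its standard error (SE) from limma with n = 4 per group, so that a change of 1 is a 2-fold change, and changes of genes near 1 FPKM are understated. A gene was called higher or lower where the p-value of limma, adjusted over all genes by the Benjamini-Hochberg method, was under 0.05. Where values of single libraries follow each other, they stand in the order of the column index, from 0 to 3.

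The IP libraries varied more than the input libraries and held another mixture of RNA. Within groups, correlations across genes were 0.819 to 0.916 in IP and 0.970 to 0.981 in input, and IP library 0 had the lowest of the IP group (0.819 to 0.839). Mitochondrially encoded genes took 12.8%, 4.24%, 6.62% and 4.43% of the summed FPKM in the IP libraries, against 39.1%, 27.9%, 29.8% and 28.5% in the input libraries. The means of 7.03% ± 4.01 in IP and 31.3% ± 5.25 in input (SD, n = 4 each) differed by -24.3 percentage points (two-sided exact permutation test, p = 0.0286, the smallest that 70 splits allow). Entries listed at 0 made up 1.40% to 9.57% of the table in IP libraries, with the highest share in IP library 0, and 0.440% to 0.957% in input libraries. Summed over their tested members, markers of hypothalamus reached 226 to 410.3 FPKM in IP libraries and 91.6 to 148 FPKM in input libraries. Markers of the neighbouring thalamus summed to 1827 to 2816 FPKM in IP libraries and 563 to 679 FPKM in input libraries. The thalamic sum was higher than the hypothalamic one in each of the 8 libraries. The lists hold different genes, with 9 of 12 listed tested for hypothalamus and 8 of 8 for thalamus. Their sums therefore do not compare amounts of tissue. How these differences between libraries bear on the changes of single genes was not tested.

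Of the 12349 genes tested, 4936 passed the threshold (40.0%), of which 2742 were higher in IP (22.2%) and 2194 were lower (17.8%). In 5112 genes the 4 IP and 4 input values did not overlap (41.4%), and 4520 of these were also past the threshold. Changes of at least log2 2 were found in 608 genes called higher and 204 called lower, and changes of at least log2 3 in 147 higher and 21 lower. How many of the called genes were higher depended on the scaling. The share was 55.6% as deposited, 53.4% with median-ratio scaling, 45.7% with quantile normalization and 27.7% when each library was scaled to the same sum over nuclear genes, a setting that moved the median of all genes from -0.01 to -0.45. With equal nuclear sums 1655 genes were higher and 4320 were lower. The median of all genes was -0.07 with quantile normalization. It was -0.04 with median-ratio scaling, which thus stays close to the values as deposited. A list's median or counts with equal nuclear sums are to be set against -0.45 and against 13.4% of all genes higher and 34.98% lower. With quantile normalization they are to be set against -0.07 and against 20.4% of all genes higher and 24.2% lower. Counts as deposited are to be set against the 22.2% and 17.8% above. A share near that of all genes is not a result about a list. Leaving out IP library 0 gave 3239 higher and 2830 lower genes, or 26.2% and 22.9% of all genes. Without IP library 1, 2 or 3 the shares were 21.41% to 22.42% higher and 17.73% to 18.63% lower. Without 1 input library they were 17.97% to 18.48% higher and 12.59% to 12.94% lower. The fit over all 14 libraries gave 19.33% and 14.82%. A list's counts in these settings are to be set against these shares. Whether a list gained or lost more calls than all genes was not tested.

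**Figure D1:**
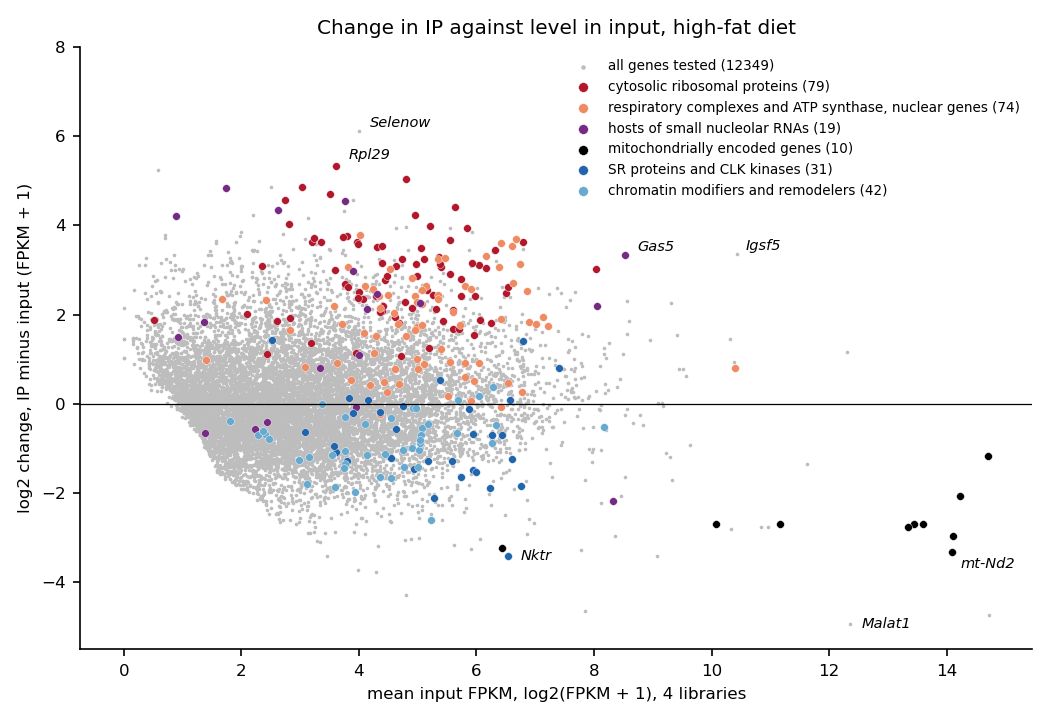
Log2 change (IP minus input, FPKM + 1) against the mean level in input (log2(FPKM + 1), 4 libraries) for the 12349 genes tested, with 6 gene groups in colour. Ribosomal protein genes lie above 0 (median 2.86), the 10 mitochondrially encoded genes lie below it at high input levels (median -2.70), and most SR protein, CLK and chromatin genes lie below it.

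The message that rose most in IP was that of Selenow, a small selenoprotein. Selenow stood at 1686, 849, 864 and 726 FPKM in IP and 28.5, 12.6, 12.1 and 6.67 FPKM in input. Every IP library lay above every input library, and the log2 change was 6.11 ± 0.39 (adjusted p = 3.3e-06). Selenow lies on chromosome 7 at 15917208 to 15922402 on the minus strand (GRCm38), with a longest coding sequence of 264 bases in GENCODE M21. The other 9 of the 10 named genes with the largest rise were 6 ribosomal protein genes and 3 genes listed as hosts of small nucleolar RNAs (Snhg6, Snhg8 and Rcc1). The genes whose rise was largest relative to its spread included Gng3, a gamma subunit of heterotrimeric G proteins in neurons, the cytochrome oxidase subunits Cox7c, Cox6b1 and Cox7b, the actin-binding thymosin Tmsb10, and Tomm6, a small subunit of the mitochondrial import channel. Gng3 stood at 1383, 1060.5, 1255 and 1250.5 FPKM in the IP libraries, against 114, 109, 109 and 106 FPKM in the input libraries. Both groups were narrow and far apart, with a log2 change of 3.48 ± 0.12 (adjusted p = 2.7e-07). Gng3 and Tomm6 overlap exons of a gene on the other strand, and because the library kit does not mark strand, reads of such pairs cannot be told apart.

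The RNA that fell most was Malat1, a long non-coding RNA kept in nuclear speckles. Malat1 stood at 401, 96.5, 124 and 172 FPKM in IP and 5614, 5266, 5093 and 4954 FPKM in input. Its highest value in IP, in IP library 0, lay far below the lowest value in input, and the change was -4.94 ± 0.36 (adjusted p = 6.3e-06). Reads of Malat1 and of a gene model on the opposite strand within it cannot be told apart, so the level of Malat1 is uncertain. The model (Gm37376) was singled out after its values were seen and fell too. It stood at 2365, 579, 865 and 868 FPKM in IP libraries and 28785, 28034, 25469 and 25292 FPKM in input libraries. Next came Rn7s1, a copy of the RNA of the signal recognition particle, whose values ran from 0 to 16.3 FPKM in IP and from 16.8 to 492 FPKM in input (-4.65 ± 1.24, adjusted p = 0.013), so its groups were separated only narrowly and it no longer passed with array weights (-4.64). Nktr, an SR-domain cyclophilin, fell with 10.7, 5.20, 6.83 and 9.58 FPKM in the IP libraries, against 91.8, 99.2, 89.3 and 89.1 FPKM in the input libraries (-3.41 ± 0.21, adjusted p = 2.8e-06). Ermn, a cytoskeletal protein of myelinating oligodendrocytes, fell (-3.26 ± 0.20), as did Dusp11, an RNA phosphatase (-3.03 ± 0.30). Among the falls that were largest relative to their spread were Mal, a myelin proteolipid, Ogt, the enzyme that attaches N-acetylglucosamine to intracellular proteins, Sfpq, a splicing factor of paraspeckles, Peg3, an imprinted zinc finger gene, the splicing kinase Clk1 and Phip, a chromatin-binding protein. Ogt stood at 23.1, 13.7, 21.7 and 18.3 FPKM in IP and 127, 121, 107 and 116 FPKM in input (-2.58 ± 0.17, adjusted p = 4.2e-06).

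**Figure D2:**
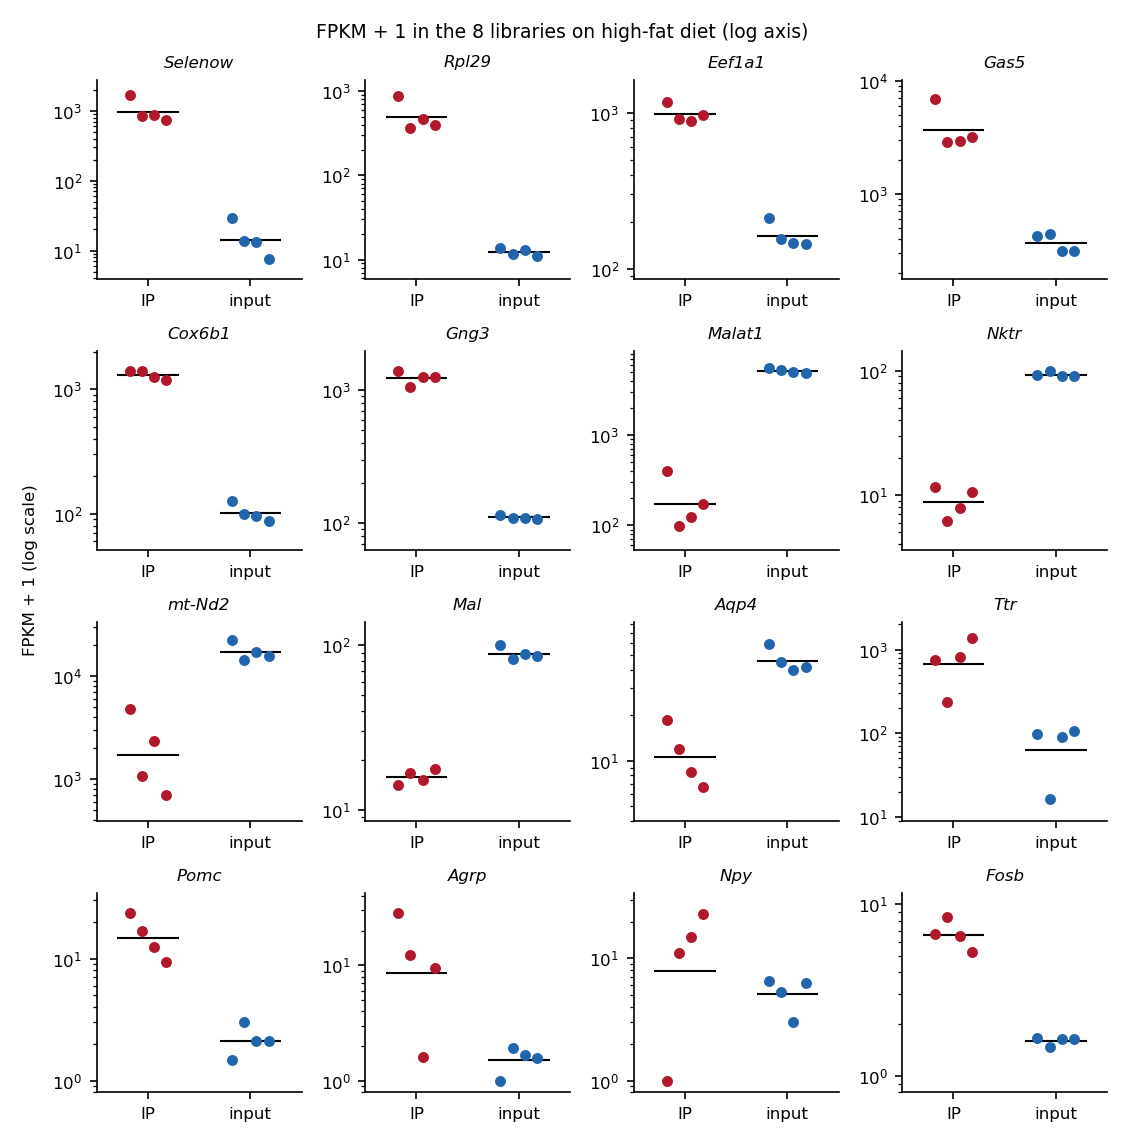
FPKM + 1 on a log axis of 16 genes in the 4 IP libraries (left, red) and the 4 input libraries (right, blue), in the order of column index 0 to 3, with horizontal bars at the mean of the log values. The groups are separated in each gene shown except Agrp and Npy, where 1 IP library lies among or below the input libraries.

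All cytosolic ribosomal protein messages were higher in IP. The 79 measured genes were all past the threshold, with a median log2 change of 2.86 and a range from 1.06 to 5.34, and in 77 of them the groups did not overlap. The median was 2.13 with quantile normalization, where 77 passed, and 2.32 with equal nuclear sums, where 76 passed, and none was lower in either. Symbols that begin with Rpl or Rps and a digit took 6.06% ± 1.64 of summed FPKM in IP and 0.794% ± 0.0361 in input (SD, n = 4 each). These symbols are not the same set as the 79 genes, and include the S6 kinase gene Rps6kb1. Rpl29, of the large subunit, rose most, with 873, 369, 470.0 and 399 FPKM in the IP libraries, against 12.5, 10.7, 11.9 and 9.97 FPKM in the input libraries (5.34 ± 0.25, adjusted p = 7.7e-07). Rps21, Rps14 and Rps19, all of the small subunit, rose by 5.04 ± 0.41, 4.87 ± 0.33 and 4.71 ± 0.24. Rpl36 rose by 4.58 ± 0.32 and Rps29 by 4.41 ± 0.26. Rps6, which encodes the precipitated protein itself, stood at 202, 184, 148 and 190.1 FPKM in IP and 57.7, 59.8, 63.6 and 62.9 FPKM in input. Its groups did not overlap, yet its change of 1.54 ± 0.13 (adjusted p = 1.5e-05) was among the smaller ones of the family. In Rps21, Rps14, Rps19 and Rpl29 the highest of the 4 IP values was that of IP library 0, and without that library all 79 genes were still called higher, with a median of 2.62. Ribosomal protein genes have many processed pseudogenes, so reads may have been split between near-identical copies. Of 452 processed pseudogenes tested, 223 were called higher and 18 lower (median 0.91).

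Vertebrate ribosomal protein messages begin with a terminal oligopyrimidine (TOP) tract, a cytosine at the transcription start followed by a run of pyrimidines, through which mTORC1 controls their translation. Sequences from RefSeq (GRCm38.p6) show the 30 bases before and the 20 bases from the annotated start, each 5′ to 3′ on the sense strand. They are given for 4 ribosomal protein genes, the elongation factor Eef1a1 and the snoRNA host Snhg8, as pyrimidine runs near the start in genes that rose. The 4 are those with the largest rise among the genes considered that hold a pyrimidine run there. Genes of a single chromosome were left out of this choice, so a ribosomal protein gene not shown may hold a run too. Capitals mark the longest run of at least 6 pyrimidines that begins with a C. Only that of Snhg8 begins at the annotated start, and that of Rps19 begins 6 bases past it. For comparison, Selenow, which rose most, and the splicing genes Nktr and Sfpq, which fell, hold no such run within 25 bases either side of the start.
Rps21: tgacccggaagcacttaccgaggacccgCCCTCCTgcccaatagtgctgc
Rps19: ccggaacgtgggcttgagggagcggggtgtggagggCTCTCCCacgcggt
Rps24: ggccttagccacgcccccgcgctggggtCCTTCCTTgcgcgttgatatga
Rpl35a: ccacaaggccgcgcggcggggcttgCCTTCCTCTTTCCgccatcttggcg
Eef1a1: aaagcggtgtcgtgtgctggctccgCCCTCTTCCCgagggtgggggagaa
Snhg8: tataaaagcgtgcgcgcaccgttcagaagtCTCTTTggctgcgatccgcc
Selenow: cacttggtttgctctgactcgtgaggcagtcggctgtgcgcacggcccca
Nktr: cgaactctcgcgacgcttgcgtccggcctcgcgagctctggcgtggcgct
Sfpq: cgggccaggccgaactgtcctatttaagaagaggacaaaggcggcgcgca
These windows lie at chr2:180257349-180257398 (plus strand) for Rps21, chr7:24884883-24884932 (plus strand) for Rps19, chr14:24490648-24490697 (plus strand) for Rps24, chr16:33056452-33056501 (plus strand) for Rpl35a, chr9:78481705-78481754 (minus strand) for Eef1a1, chr3:123508317-123508366 (minus strand) for Snhg8, chr7:15922352-15922401 (minus strand) for Selenow, chr9:121719151-121719200 (plus strand) for Nktr and chr4:127021271-127021320 (plus strand) for Sfpq. The annotated start is often a few bases away from the start that cells use, so a window is a description of the letters and not of a measured 5′ end. Searched on the sense strand for a C followed by at least 5 bases that are C or T, within 25 bases either side of the start, 40 of the 58 ribosomal protein genes with a RefSeq promoter held such a run (69.0%), and 9 of 14 other TOP genes did (64.3%). The share was 39.8% over all 8980 tested genes with a promoter, 42.0% of 1926 genes called higher and 39.8% of 1548 genes called lower. Respiratory genes held the run in 19 of 61 cases (31.1%), hosts of small nucleolar RNAs in 7 of 17 (41.2%), initiation factors in 12 of 35 (34.3%) and mitochondrial ribosomal proteins in 32 of 66 (48.5%). Within the ribosomal protein genes, the median change was 2.75 with the run and 2.94 without it.

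Other messages of the translation machinery moved in both directions. Of the other 19 measured TOP messages (elongation factors, subunits of eIF3 and others), 18 were higher, none was lower and the median was 1.60. Eef1a1, which brings aminoacyl-tRNA to the ribosome, stood at 1164, 912, 889.7 and 964 FPKM in the IP libraries, against 211, 154, 147 and 143 FPKM in the input libraries (2.59 ± 0.16, adjusted p = 2.8e-06). Eef1g, a subunit of its exchange factor, rose by 1.62 ± 0.13 and Eif3h, a subunit of initiation factor 3, by 1.94 ± 0.16. Of 42 initiation factor genes, 23 were higher and 3 lower (median 0.64), counts that were 15 and 6 with quantile normalization and 13 and 8 with equal nuclear sums (median 0.09), and without IP library 1 the lower count was 5. Eif1, which helps the ribosome select the start codon, rose by 3.46 ± 0.17, with 663, 682, 606 and 565 FPKM in IP and 75.5, 52.4, 59.3 and 42.4 FPKM in input, and Eif4g2, a scaffold of cap-independent initiation, rose by 2.02 ± 0.13. Eif3a, the largest subunit of eIF3, fell (-1.07 ± 0.19), as did Eif3c (-0.79 ± 0.19). Of 23 cytosolic aminoacyl-tRNA synthetase genes and partners, which charge tRNAs, 20 did not pass, Eef1e1 rose by 1.13 ± 0.33 (not past the threshold without input library 0, 1 or 2 (1.04 to 1.13)) and 2 fell, among them Eprs with 5.18, 6.35, 6.94 and 6.37 FPKM in the IP libraries, against 17.02, 18.7, 16.9 and 18.6 FPKM in the input libraries (-1.39 ± 0.18, adjusted p = 0.00024). Their median was -0.14, and 0.03 without IP library 0.

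Host genes of small nucleolar RNAs carry these guide RNAs in their introns, and some are known for a TOP tract and a spliced RNA that nonsense-mediated decay removes. Of 19 measured hosts, 12 were higher and 1 lower, with a median of 2.12. Gas5 was the most abundant of them, with 6921, 2838, 2946 and 3148 FPKM in IP and 422, 436, 312 and 306 FPKM in input (3.33 ± 0.28, adjusted p = 1.5e-05). The groups were far apart, and IP library 0 stood above the other IP libraries. Snhg6 rose by 4.84 ± 0.30, Snhg8 by 4.55 ± 0.31 and Snhg5 by 2.98 ± 0.20. Rcc1, an exchange factor for the GTPase Ran, rose by 4.34 ± 0.28. The exception was Snhg11, a neuronal host listed among the nuclear RNAs as well, with 112, 47.04, 59.4 and 73.03 FPKM in the IP libraries, against 363, 329, 283 and 305 FPKM in the input libraries (-2.19 ± 0.23, adjusted p = 6.3e-05). Selenoproteins carry selenocysteine, which is inserted at a UGA codon. Besides Selenow, 8 of the 19 measured genes were higher and 1 was lower (median of the list 0.59). Selenom, of the endoplasmic reticulum, rose by 2.69 ± 0.18 and Gpx1, a cytosolic glutathione peroxidase, by 2.54 ± 0.17, while Selenon fell (-0.96 ± 0.27), not past the threshold without input library 2 (-0.93).

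Nuclear genes of the respiratory chain were higher in IP, and the mitochondrially encoded subunits of the same complexes were lower. Of 33 genes of complex I, 27 were higher and none lower (median 1.66). For complex III the count was 7 of 9 (median 2.41), for complex IV 11 of 12 (2.46) and for ATP synthase 15 of 16 (1.97), with none lower. With quantile normalization these counts were 19, 6, 10 and 13, with 1 gene of ATP synthase lower, and with equal nuclear sums they were 18, 6, 11 and 12, again with 1 lower gene. Cox6b1, a small subunit of cytochrome oxidase, stood at 1408, 1409, 1259.7 and 1187 FPKM in IP and 124, 98.3, 94.5 and 86.6 FPKM in input (3.70 ± 0.14, adjusted p = 2.7e-07). Cox7b had the narrowest spread, with 623, 631, 674 and 646 FPKM in the IP libraries, against 99.96, 92.6, 98.8 and 99.6 FPKM in the input libraries (2.71 ± 0.11, adjusted p = 2.7e-07). In both, the groups were narrow and did not overlap. Ndufc2, an accessory subunit of complex I, rose by 3.79 ± 0.18, Uqcr10 of complex III by 2.83 ± 0.14 and Usmg5, a small membrane subunit of ATP synthase, by 3.53 ± 0.16. Atp5b, the catalytic beta subunit and the most abundant of the nuclear genes, rose too, with 2375, 2554, 2341 and 2103 FPKM in IP and 1354, 1307, 1384 and 1326 FPKM in input (0.80 ± 0.13, adjusted p = 0.00077).

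All 10 measured mitochondrially encoded genes fell (median -2.70, or -2.02 under quantile normalization, where 8 passed). mt-Nd2, of complex I, fell most, with 4787, 1082, 2361 and 699 FPKM in the IP libraries, against 22369, 14259.9, 17229 and 15629 FPKM in the input libraries (-3.32 ± 0.51, adjusted p = 0.00058). mt-Cytb, the cytochrome b of complex III, fell (-2.07 ± 0.42). The smallest fall was that of mt-Co1, the catalytic subunit of cytochrome oxidase, with 26995, 6925, 9653 and 8944 FPKM in IP and 42070.2, 21851, 21946 and 20831 FPKM in input (-1.18 ± 0.42, adjusted p = 0.048). Here the groups overlapped, because IP library 0 stood above 3 of the input libraries, and mt-Co1 no longer passed without IP library 1, 2 or 3 or without input library 0, 1, 2 or 3 (-0.93 to -1.27). With quantile normalization mt-Co1 and mt-Cytb changed by -0.27 and -0.52 and did not pass. Proteins of the mitochondrial ribosome, all encoded in the nucleus, were higher in 38 of 77 cases and lower in 1 (median 0.98), with 3 lower without IP library 0 and 4 without IP library 1. Mrps21 rose by 2.92 ± 0.17, Mrpl30 by 2.69 ± 0.17 and Mrpl34 by 2.94 ± 0.21, and Mrpl19 fell (-1.41 ± 0.31). Of 14 enzymes of the tricarboxylic acid cycle, 3 were higher and 2 lower (median -0.31). These shares of 21.4% and 14.3% were near those of all genes, and with quantile normalization 7 were lower and none was higher (median -0.74). Leaving out 1 library gave 1 lower gene (IP library 2 or any input library) or 4 (IP library 1). Idh3g, a subunit of isocitrate dehydrogenase, rose by 0.92 ± 0.19, and Ogdh, of the oxoglutarate dehydrogenase complex, fell (-0.66 ± 0.16). Of 16 glycolytic genes, 5 were higher and 2 lower (median 0.00), and with quantile normalization none was higher and 6 were lower (median -0.42). The 2 that fell were Aldoc, the aldolase of astrocytes, with 176, 128, 99.4 and 80.7 FPKM in the IP libraries, against 305, 362, 378 and 434 FPKM in the input libraries (-1.65 ± 0.23, adjusted p = 0.00031), and Pfkp, a phosphofructokinase (-1.21 ± 0.20).

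**Figure D3:**
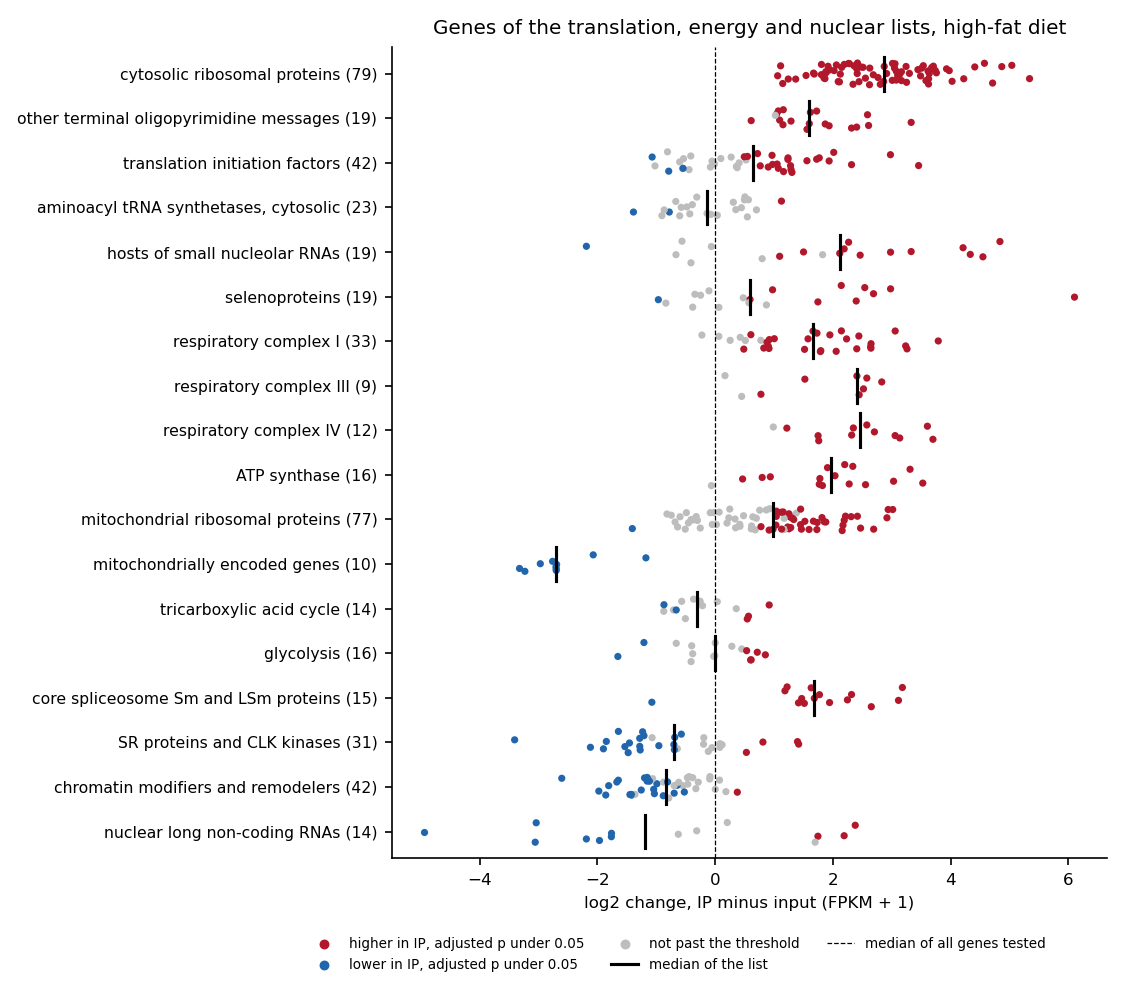
Log2 change (IP minus input) of every measured member of 18 gene lists, with the number measured in brackets, red where higher and blue where lower at an adjusted p under 0.05, grey where not past it. Bars mark the median of each list and the dashed line the median of all genes tested (-0.01). Ribosomal proteins, nuclear respiratory genes and Sm and LSm proteins lie to the right, mitochondrially encoded, SR and chromatin genes to the left.

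Further groups of short messages were higher in IP. Of 15 Sm and LSm proteins, which form the core of spliceosomal particles, 14 were higher and 1 lower (median 1.69), with the same counts under quantile normalization, median-ratio scaling and equal nuclear sums. Snrpg rose by 2.32 ± 0.22, Snrpd1 by 1.47 ± 0.15 and Snrpf by 3.18 ± 0.27, and Snrpb, present at 0.329 to 1.95 FPKM in IP and 2.58 to 4.22 FPKM in input, fell (-1.07 ± 0.33) and no longer passed without IP library 2 or without input library 0, 1 or 2 (-0.87 to -1.08). Of 19 messages for ubiquitin, its relatives and ferritin, 16 were higher and 1 lower (median 1.39). Nedd8, a ubiquitin-like protein that activates cullin ligases, rose by 2.36 ± 0.15, Ubl5 by 2.74 ± 0.19 and Gabarapl1, which coats autophagosomes, by 1.83 ± 0.12. Fth1, the heavy chain of ferritin, fell (-0.93 ± 0.24), with 605, 475, 275 and 355 FPKM in IP and 1029.7, 681, 778 and 679 FPKM in input. Of 34 proteasome subunits, 10 were higher and none lower (median 0.30). With quantile normalization 6 were higher and 4 lower (median -0.07, as for all genes), and with equal nuclear sums the median was -0.22, above that of all genes (-0.45). Psma7, a subunit of the alpha ring, rose by 1.73 ± 0.16.

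Messages of calcium sensors and small cytoskeletal proteins included some of the most abundant messages of the IP. Of 30 measured genes, 23 were higher and none was lower (median 1.03), and with quantile normalization 12 were higher and 3 lower (median 0.10). Tmsb10 stood at 509, 387, 503 and 359 FPKM in the IP libraries, against 26.6, 29.8, 26.2 and 25.4 FPKM in the input libraries (3.96 ± 0.15, adjusted p = 2.7e-07). Pcp4l1, a small calmodulin-binding protein, stood at 877, 767, 1107 and 871 FPKM in IP and 79.7, 73.4, 86.5 and 82.7 FPKM in input (3.46 ± 0.14, adjusted p = 2.9e-07). Neither gene overlapped between the groups. Calm2, which encodes calmodulin, rose by 0.94 ± 0.14. The entry with the highest mean in the table's IP columns among named genes was Igsf5, a member of the immunoglobulin superfamily, with 12683, 11127, 18198 and 15322 FPKM in the IP libraries, against 1245, 1263, 1491 and 1517 FPKM in the input libraries (3.36 ± 0.19, adjusted p = 2.4e-06). In GENCODE M21 a second gene model of this symbol, on chromosome 16 at 96361794 to 96525580 (GRCm38, plus strand), runs through Pcp4 at 96467606 to 96525793, which encodes another small calmodulin-binding protein. No entry under the symbol Pcp4 was used here, so reads of Igsf5 and Pcp4 cannot be told apart.

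Most SR, CLK and chromatin genes that passed the threshold were lower in IP, unlike the Sm and LSm genes above. Of 31 SR proteins, SR-related genes and CLK kinases, which govern splice site choice, 18 were lower and 4 higher (median -0.70, and -1.25 with equal nuclear sums), with 2 higher without input library 1. Clk1 stood at 7.45, 6.89, 9.25 and 8.08 FPKM in IP and 39.02, 39.2, 34.4 and 37.7 FPKM in input (-2.12 ± 0.16, adjusted p = 8.2e-06). Its IP and input values lay far apart. Rsrp1 fell (-1.64 ± 0.24). Srsf5 went the other way, with 315, 293, 260.3 and 297 FPKM in the IP libraries, against 114, 127, 98.1 and 101 FPKM in the input libraries (1.40 ± 0.13, adjusted p = 2.5e-05), and Srsf9 rose by 1.42 ± 0.30. Of 42 chromatin modifiers and remodelers, 22 were lower and 1 higher (median -0.84, and -1.38 with equal nuclear sums). Tet2, which oxidises methylcytosine, fell (-2.61 ± 0.24). Kmt2c and Kmt2a, histone H3 lysine methyltransferases, fell (log2 changes of -1.67 ± 0.19 and -1.42 ± 0.19), and Chd4, a remodeler of the NuRD complex, fell (-1.42 ± 0.20). The exception, Ncor1, a corepressor of nuclear receptors, was barely past the threshold (0.38 ± 0.14, adjusted p = 0.048), and its change was -0.39 with quantile normalization and -0.18 with equal nuclear sums. It no longer passed without IP library 0, 1 or 3 or without input library 0, 1, 2 or 3 (0.32 to 0.41). Of 284 zinc finger genes with a Zfp symbol, 63 were lower (22.2%, near the 17.8% of all genes) and 24 higher (8.45%, against 22.2%), with a median of -0.40. Zfp445 stood at 3.88, 7.86, 7.51 and 5.63 FPKM in IP and 42.3, 44.1, 40.6 and 39.5 FPKM in input (-2.60 ± 0.22, adjusted p = 1.3e-05), and Zfp938 rose by 2.14 ± 0.28.

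Long non-coding RNAs included higher and lower members. Of 14 RNAs listed as nuclear, 7 were lower and 3 higher (median -1.19). Besides Malat1, Neat1, the scaffold of paraspeckles, fell (-3.06 ± 0.51), as did Miat, a neuronal nuclear RNA (-3.04 ± 0.41). The imprinted RNAs Peg13 and Snhg14 rose, Peg13 with 290.4, 234, 336 and 287 FPKM in the IP libraries, against 50.9, 53.9, 56.1 and 54.4 FPKM in the input libraries (2.38 ± 0.13, adjusted p = 2.3e-06) and Snhg14 by 2.19 ± 0.15. Snhg14 overlaps Ube3a on the other strand. Over annotation classes, models that GENCODE marks as to be experimentally tested (TEC) were lower most often, in 125 of 195 cases (64.1%, median -1.38), and 9 were higher. Of 265 long intergenic RNAs, 58 were higher and 56 lower (21.9% and 21.1%, near the shares of all genes), and of 10881 protein-coding genes 2321 were higher and 1891 lower (median -0.04).

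Changes differed with the length of the message. Over 10875 genes with a coding sequence, Spearman's rank correlation between coding length and log2 change was -0.48, as a description across genes, which are not independent. The 221 genes with a coding sequence of up to 300 bases had a median change of 1.93, and 170 of them were higher and 6 lower. Those over 600 and up to 1200 bases had a median of 0.25, and the 522 genes over 4800 bases had -0.71, with 17 higher and 240 lower. Without ribosomal and respiratory genes, the shortest class still had a median of 1.75 (186 genes) and the longest -0.71. The rank correlation was -0.42 for transcript length, -0.22 for the length of the 3′ untranslated region and 0.20 for GC content, and the median was -0.47 for 721 genes of up to 40% GC and 0.51 for 489 genes of over 60% GC. The correlation with coding length was -0.46 after quantile normalization and -0.37 on the control diet. Some lists above differ in length in the same direction, with a median transcript of 838 bases for ribosomal proteins and 8785.5 for chromatin genes. Others do not, as the mitochondrially encoded genes have a median transcript of 820.5 bases and a median change of -2.70. The part of length in the changes of the lists was not tested.

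**Figure D4:**
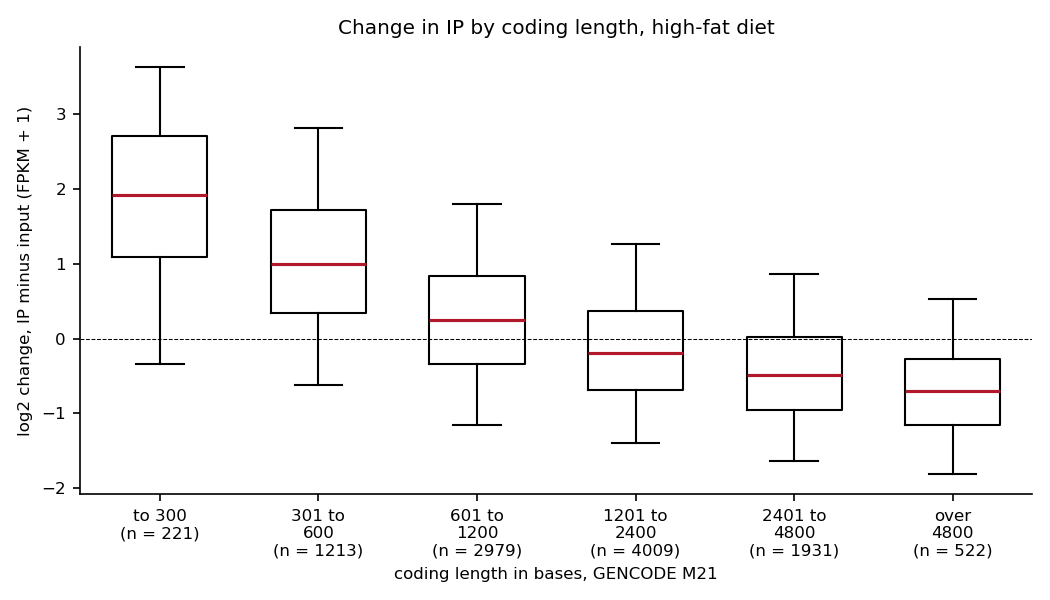
Log2 change (IP minus input) of 10875 protein-coding genes by coding length in bases, with the number of genes in brackets. Boxes span the quartiles with the median in red and whiskers the 5th to 95th percentile. Medians fall step by step from 1.93 in the shortest class to -0.71 in the longest.

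Markers of neurons were higher in IP and markers of astrocytes and oligodendrocytes lower. All 9 measured neuronal markers were higher, with a median of 1.15, which was 0.59 with equal nuclear sums (5 higher) and 0.03 with quantile normalization (4 higher, none lower). Rbfox3, the nuclear protein NeuN, stood at 85.9, 81.9, 89.3 and 126 FPKM in IP and 25.2, 28.6, 28.4 and 29.2 FPKM in input (1.73 ± 0.16, adjusted p = 2.8e-05). Vsnl1, a calcium sensor, stood at 3191, 3382, 4024 and 3338 FPKM in the IP libraries, against 1116, 1309, 1311 and 1329 FPKM in the input libraries (1.46 ± 0.14, adjusted p = 3.5e-05), and Snap25, the SNARE protein, rose by 1.15 ± 0.17. In a bulk sample, fewer cells of a type and less RNA per cell cannot be told apart, and in an IP a smaller share of phosphorylated ribosomes cannot be told apart from either. The 9 measured astrocyte markers all fell, with a median of -1.56, and their summed level was 213 to 420.3 FPKM in IP libraries and 773 to 870.5 FPKM in input libraries. Aqp4, the water channel of astrocyte endfeet, stood at 17.5, 10.99, 7.42 and 5.67 FPKM in IP and 57.9, 43.5, 38.6 and 40.8 FPKM in input (-2.11 ± 0.30, adjusted p = 0.00038). Gfap, the astrocytic intermediate filament, fell (-1.64 ± 0.24), as did Slc6a11, a GABA transporter (-1.56 ± 0.22). None of the 3 overlapped between the groups.

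Among 10 markers of mature oligodendrocytes, 7 were lower and 1 higher (median -1.28), with sums of 537 to 731 FPKM in IP libraries and 1364 to 1529 FPKM in input libraries. Mal stood at 13.1, 15.7, 14.2 and 16.6 FPKM in the IP libraries, against 99.04, 81.4, 87.8 and 84.6 FPKM in the input libraries (-2.49 ± 0.14, adjusted p = 2.4e-06). Mog, a protein of the outer surface of myelin, fell (-1.91 ± 0.21). Cldn11, which seals myelin layers, was the one called higher (0.65 ± 0.21, adjusted p = 0.033), and it was not called higher with quantile normalization or equal nuclear sums, where 9 markers were lower, nor without IP library 2 or 3 or without input library 0, 1 or 2 (0.57 to 0.71). Of 5 markers of oligodendrocyte precursors only Gpr17 passed, rising by 1.20 ± 0.26. Of 7 microglial markers only Cx3cr1 passed (-0.83 ± 0.26, adjusted p = 0.030). It no longer passed without IP library 1 or 3 or without input library 0, 1, 2 or 3 (-0.71 to -0.85). Nor did it with quantile normalization, and 1 other marker was higher. Rgs5, a marker of pericytes, stood at 4.61, 3.10, 4.06 and 1.27 FPKM in IP and 29.4, 36.3, 29.8 and 30.9 FPKM in input (-3.01 ± 0.29, adjusted p = 3.1e-05), and Vtn, also mural, fell (-1.17 ± 0.41), with groups that overlapped. Vtn no longer passed without IP library 1, 2 or 3 or without input library 0, 1 or 2 (-0.91 to -1.21). Of 7 endothelial markers only 1 reached the level for testing and did not pass.

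Markers of tissues that border the dissection were also higher in IP. Of 7 choroid plexus markers 6 were higher (median 2.01). The higher count was 4 with equal nuclear sums, without IP library 2 or 3, or without input library 0, 1 or 3. It was 7 without IP library 1. Ttr, the thyroid hormone carrier made there, stood at 759, 237, 811 and 1364 FPKM in the IP libraries, against 98.1, 15.6, 89.6 and 105 FPKM in the input libraries (3.41 ± 0.65, adjusted p = 0.0022). Folr1, a folate receptor, stood at 28.3, 3.66, 18.2 and 3.93 FPKM in IP and 0.165, 0, 0 and 1.004 FPKM in input (3.11 ± 0.60, adjusted p = 0.0023). Both differed widely among IP libraries. All 4 globin genes measured were higher, from 3.34 ± 0.42 for Hba-a2 to 4.17 ± 0.34 for Hbb-bs, while Alas2, the haem synthesis enzyme of red cell precursors, did not pass. Hbb-bs stood at 220.3, 201, 73.4 and 166 FPKM in the IP libraries, against 7.28, 11.5, 6.13 and 6.11 FPKM in the input libraries. The globin genes are near-identical copies, so their single values are uncertain. Of 8 thalamic markers 6 were higher (median 1.75), and with quantile normalization and equal nuclear sums 5 were higher and 2 lower. Tcf7l2, a transcription factor of thalamic neurons, stood at 948, 707, 1217 and 1038 FPKM in IP and 181, 149.9, 179.6 and 177 FPKM in input (2.48 ± 0.17, adjusted p = 4.4e-06). Lef1 rose by 2.40 ± 0.24, Ntng1, a netrin of thalamic axons, by 1.84 ± 0.15 and Ramp3, a receptor partner of calcitonin-family receptors, by 2.49 ± 0.25. Their part in the changes of neuronal and hypothalamic genes was not tested.

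**Figure D5:**
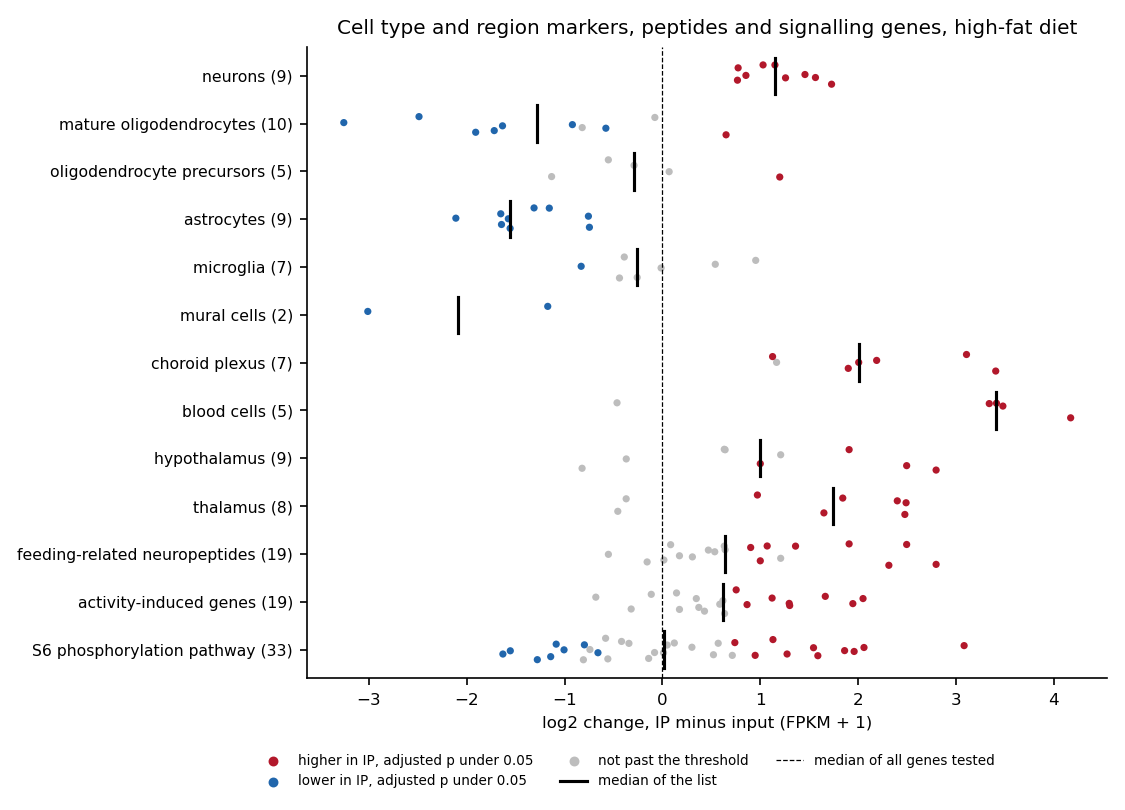
Log2 change (IP minus input) of every measured marker of 10 cell types or regions and of feeding peptides, activity-induced genes and the S6 pathway, coloured and marked as in the plot of the other lists. All 9 neuronal markers lie to the right of 0 and all 9 astrocyte markers to the left, under the scaling as deposited. The neuronal median is 0.03 with quantile normalization.

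Peptide messages of feeding neurons rose or did not pass. Of 19 measured, 8 were higher and none lower (median 0.64). The higher count was 11 without IP library 0 and 4 without input library 0, and it was 4 with equal nuclear sums (median 0.25). Higher calls over all genes also rose without IP library 0 and fell in the other 2 settings. Pomc, the precursor of the satiety peptide alpha-MSH, stood at 22.8, 15.7, 11.5 and 8.33 FPKM in the IP libraries, against 0.484, 2.002, 1.12 and 1.09 FPKM in the input libraries (2.80 ± 0.35, adjusted p = 0.00017). Its groups did not overlap. Agrp, the antagonist of melanocortin receptors that promotes feeding, stood at 27.4, 11.4, 0.606 and 8.43 FPKM in IP and 0, 0.949, 0.684 and 0.595 FPKM in input (2.50 ± 0.73, adjusted p = 0.020). Agrp was high in 3 IP libraries and at the level of input in IP library 2, so its groups overlapped. It no longer passed without IP library 1 or without input library 0 (2.30 to 2.32). Its longest annotated model overlaps exons of Ctcf on the other strand. Npy, which the same neurons release, stood at 0, 9.96, 13.9 and 22.2 FPKM in the IP libraries, against 5.48, 4.35, 2.02 and 5.29 FPKM in the input libraries (0.63 ± 0.83, adjusted p = 0.58). It is listed at 0 in IP library 0, where Agrp was highest, and did not pass the threshold, though it passed without IP library 0 (1.62).

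Cck, cholecystokinin, was the most abundant of these peptides, with 2054, 1826, 1444 and 2212 FPKM in IP and 323, 376, 369 and 432 FPKM in input (2.31 ± 0.16, adjusted p = 5.3e-06). Hcrt, orexin of the lateral hypothalamus, rose by 1.91 ± 0.37, with 44.9, 23.9, 12.8 and 19.2 FPKM in the IP libraries, against 3.07, 5.95, 5.78 and 7.35 FPKM in the input libraries. Pmch, melanin-concentrating hormone, rose by 1.00 ± 0.28, Sst, somatostatin, by 1.36 ± 0.29 and Pnoc, the nociceptin precursor, by 1.07 ± 0.31. Pnoc stood at 3.37, 1.40, 4.66 and 2.999 FPKM in IP and 0.752, 0.727, 1.15 and 0.871 FPKM in input, all 4 IP values above the input values. Pnoc no longer passed without input library 0, 1 or 3 (1.03 to 1.07), nor Pmch without input library 0 (0.87). With equal nuclear sums Pnoc, Pmch and Sst did not pass (0.74, 0.45 and 0.81), and with quantile normalization neither did Pmch and Sst (0.03 and 0.46). Cartpt, the precursor of the anorexigenic CART peptide, did not pass (0.54 ± 0.30, adjusted p = 0.18). Of 11 other hypothalamic peptides and hormones, 6 were higher and 1 lower, with 4 higher without IP library 1 or input library 0 or 3 and 2 higher with equal nuclear sums (median 0.55). Cbln1, a secreted organiser of synapses, rose by 2.12 ± 0.14 and Cbln4 by 1.34 ± 0.18, whereas Npff, neuropeptide FF, fell (-1.34 ± 0.35), with groups that overlapped. Of 18 granins and processing enzymes, 7 were higher and 2 lower (median 0.27), with 4 higher without input library 0, 1 or 2 and 1 lower without IP library 2 or 3 or input library 0, 2 or 3. The median was -0.10 with quantile normalization and -0.24 with equal nuclear sums, against -0.07 and -0.45 for all genes. Pcsk1n, an inhibitor of a prohormone convertase, rose by 2.85 ± 0.15 and the convertase Pcsk2 by 1.15 ± 0.13, and Cpe, which trims the cut peptides, fell (-0.47 ± 0.16) but no longer passed without IP library 2 or 3 or without input library 0, 2 or 3 (-0.37 to -0.45).

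Most receptors for metabolic signals did not pass the threshold. Of 31 measured, 3 were higher and 4 lower (9.68% and 12.9%, median -0.04). These counts were 5 and 8 without IP library 0, and 2 were lower without input library 0, 1 or 2. Thra, a thyroid hormone receptor, rose by 1.05 ± 0.13 and Ramp2 by 1.38 ± 0.26. Cnr1, the cannabinoid receptor of axon terminals, fell, with 6.81, 7.75, 6.61 and 4.62 FPKM in the IP libraries, against 11.8, 14.5, 13.4 and 12.98 FPKM in the input libraries (-0.94 ± 0.21, adjusted p = 0.0057). Of 13 genes that mark GABA neurons 3 were higher and 2 lower, and of 10 that mark glutamate neurons 2 were higher and 1 lower. The higher shares of 23.1% and 20% were near that of all genes, and for GABA neurons 1 was higher without input library 0 or 1, 5 without IP library 2, and 1 was lower without IP library 1 or input library 1, 2 or 3. Six3 rose by 1.83 ± 0.27 and Meis2 by 1.03 ± 0.29, while Gad2, which makes GABA, fell (-0.43 ± 0.14). Meis2 no longer passed without input library 0 or 1 (0.88 to 0.98), nor with quantile normalization or equal nuclear sums (0.59 and 0.49), and Gad2 without IP library 1 or without input library 1, 2 or 3 (-0.38 to -0.43). Lhx2, a transcription factor on the glutamate list, rose by 1.76 ± 0.33.

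Genes induced by neuronal activity were higher in 8 of 19 cases and lower in none (median 0.62), and 5 were higher without input library 1, 2 or 3 or in a fit over all 14 libraries. Over all genes the higher calls also fell in these settings, from 2742 to between 2219 and 2387. With equal nuclear sums 5 were higher and 2 lower (median 0.12). Fosb, a subunit of the AP-1 factor, stood at 5.71, 7.47, 5.49 and 4.25 FPKM in IP and 0.665, 0.481, 0.630 and 0.635 FPKM in input (2.05 ± 0.26, adjusted p = 0.00017). Its groups did not overlap. Egr3, an immediate early factor, stood at 26.5, 21.1, 13.5 and 10.8 FPKM in the IP libraries, against 3.03, 4.56, 3.88 and 3.31 FPKM in the input libraries (1.95 ± 0.30, adjusted p = 0.00058). Jun rose by 1.296 ± 0.21 and Homer1, a postsynaptic scaffold with an activity-induced short form, by 1.12 ± 0.21. Fos, the usual marker of recent activity, stood at 2.80, 0.400, 1.69 and 2.64 FPKM in IP and 1.15, 0.834, 1.51 and 0.594 FPKM in input (0.43 ± 0.35, adjusted p = 0.37). It stood under 3 FPKM in all 8 libraries and its groups overlapped.

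Of 33 measured genes of the pathway that leads to S6 phosphorylation, 10 were higher and 8 lower (30.3% and 24.2%, median 0.01). Subunits of the Ragulator complex, which recruits mTORC1 to lysosomes, rose, with 3.08 ± 0.19 for Lamtor2, 2.06 ± 0.16 for Lamtor5 and 1.96 ± 0.20 for Lamtor1. Rps6kb1, the S6 kinase, stood at 32.7, 20.3, 22.1 and 34.6 FPKM in the IP libraries, against 12.6, 15.9, 17.1 and 17.3 FPKM in the input libraries (0.74 ± 0.22, adjusted p = 0.020). Mtor, the kinase of the complex, stood at 6.92, 4.94, 2.01 and 2.64 FPKM in IP and 10.8, 8.46, 8.80 and 8.53 FPKM in input (-1.09 ± 0.33, adjusted p = 0.024). The groups did not overlap in either, and they moved in opposite directions. Mtor no longer passed without IP library 3 or without input library 0, 1, 2 or 3 (-0.96 to -1.12), and Rps6kb1 without input library 0 or 1 (0.64 to 0.75), with quantile normalization (0.38) or with equal nuclear sums (0.21). Rictor, a subunit of mTORC2, fell (-1.63 ± 0.24), as did Tsc1, which holds mTORC1 back (-1.28 ± 0.23).

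Channels and synaptic genes had members past the threshold in each direction. Of 59 potassium channel genes, 21 were higher and 7 lower (35.6% and 11.9%, median 0.46), with 12 lower without IP library 0. With equal nuclear sums 10 were higher and 14 lower, with a median of -0.01 against -0.45 for all genes. Kcna1, a channel of axons, stood at 83.6, 67.7, 88.1 and 77.7 FPKM in the IP libraries, against 22.7, 21.5, 19.9 and 21.4 FPKM in the input libraries (1.84 ± 0.14, adjusted p = 7.3e-06). Kcnj3, which opens on G protein signals, rose by 1.90 ± 0.16 and Kcnc1, a channel of fast-spiking neurons, by 1.58 ± 0.16. Kcnj16, a channel of glia, fell (-2.04 ± 0.24). Of 30 calcium and sodium channel genes, 7 were higher and 5 lower (median -0.12). These shares of 23.3% and 16.7% were near those of all genes, and 3 were lower without input library 2 or 3. Of this list, Cacng4 rose by 1.90 ± 0.18, while Scn3a and Cacna1e fell (log2 changes of -1.48 ± 0.23 and -1.43 ± 0.24).

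Of 43 subunits of GABA and glutamate receptors, 14 were higher and 8 lower (median 0.20). With quantile normalization 6 were higher and 15 lower (median -0.28, against -0.07 for all genes), and with equal nuclear sums the median was -0.31, above that of all genes (-0.45). Gabbr1 and Gabbr2, which together form the GABA-B receptor, rose by 1.18 ± 0.14 and 1.08 ± 0.14, and Gabra2 fell, with 29.2, 28.5, 29.1 and 25.9 FPKM in IP and 50.8, 65.1, 62.6 and 62.3 FPKM in input (-1.06 ± 0.14, adjusted p = 0.00020). Of 32 synaptic vesicle and SNARE genes, 10 were higher and 6 lower (median 0.20), with 3 lower without input library 0 or 1 and 2 without input library 3. With quantile normalization 6 were higher and 14 lower (median -0.45, against -0.07 for all genes), and with equal nuclear sums the median was -0.34, above that of all genes (-0.45). Cplx1, which clamps SNARE complexes, stood at 933, 758, 884 and 761 FPKM in the IP libraries, against 193, 179, 178 and 186 FPKM in the input libraries (2.17 ± 0.12, adjusted p = 2.1e-06). Atp6v0c, the proton pore of the vacuolar ATPase, rose by 2.84 ± 0.13 and Vamp2 by 1.43 ± 0.16, while Bsn and Pclo, very long scaffolds of the presynaptic active zone, fell (log2 changes of -1.29 ± 0.22 and -0.75 ± 0.15). Of 30 postsynaptic genes, 12 were higher and 2 lower (median 0.14), with 4 lower without IP library 0 and 1 lower without IP library 3 or input library 1, 2 or 3. With quantile normalization 10 were higher and 10 lower (median -0.23), and with equal nuclear sums the median was -0.41, near that of all genes (-0.45). Dlg4, the scaffold PSD-95, stood at 591, 520.2, 465 and 532 FPKM in IP and 82.6, 75.2, 90.1 and 93.6 FPKM in input (2.61 ± 0.13, adjusted p = 9.8e-07). Camk2n1, an inhibitor of CaM kinase II, rose by 2.43 ± 0.16. Dlg1, a relative of Dlg4, fell (-1.96 ± 0.27). Of 33 tubulin and kinesin genes, 11 were lower and 3 higher (median -0.34), among them the kinesins Kif5c, with -1.08 ± 0.12, and Kif1b, with -1.01 ± 0.12, and Tubb5, which rose by 1.05 ± 0.12.

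On the control diet IP was compared with input in 3 IP and 3 input libraries, none of them from mice on high-fat diet. This change was taken from a limma fit over all 14 libraries. Its SE and p-values therefore also draw on the spread of the high-fat libraries, and the calls on both diets are not independent. Of the 12349 genes, 3310 passed there. Of the 4936 genes called on high-fat diet, 4602 had the same sign on the control diet and 2595 also passed with that sign (52.6% of the high-fat calls and 78.4% of the control-diet calls), while 6 passed with the opposite sign. Ribosomal proteins had a median change of 2.86 on high-fat diet, against 3.13 on the control diet. Nuclear complex I genes had medians of 1.66 and 1.67 in the same order, and mitochondrially encoded genes -2.70 and -1.997. The difference of the change between diets was tested in 1 limma fit over the 14 libraries. It passed in 1 of 12349 genes (0.00810%), and 819 genes had an unadjusted p under 0.05. That gene, named after its values were seen, was Gm17122, an antisense model of Coro1c, with values that round to 0 FPKM in all 4 IP libraries and 12.9, 14.4, 7.12 and 2.02 FPKM in the input libraries on high-fat diet, and with 12.9, 11.5 and 28.9 FPKM in IP libraries and 0.989, 1.71 and 1.53 FPKM in input libraries on control diet. The count was 115 without IP library 1 of the control diet and 4 without IP library 0 of the control diet.

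No other named gene passed this test of the diets. The change of Pomc was 2.80 ± 0.35 (adjusted p = 0.00017) on high-fat diet, against 0.61 ± 0.60 on control diet (adjusted p of the difference = 0.67). For Agrp the values were 2.50 ± 0.73 and -0.05 ± 0.84, for Pnoc 1.07 ± 0.31 and -0.44 ± 0.34, and for Npy 0.63 ± 0.83 and 1.93 ± 0.89, with adjusted p of the difference of 0.74, 0.64 and 0.86. Clk1 changed by -2.12 ± 0.16 on high-fat diet, against -0.26 ± 0.43 on control diet (0.64), and Cbln4 by 1.34 ± 0.18 and 0.01 ± 0.32 (0.64). Fosb changed by 2.05 ± 0.26 and 1.28 ± 0.34 (0.77). None of these differences passed, which does not show that the diets were alike. Selenow, Rpl29 and Malat1 changed by 6.11 ± 0.39, 5.34 ± 0.25 and -4.94 ± 0.36 on high-fat diet, against 5.95 ± 0.45, 5.39 ± 0.29 and -4.73 ± 0.49 on control diet.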

How the data were processed

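Hypothalami of 8 mice were pooled per library, ribosomes with phosphorylated S6 were precipitated from the lysate, and cDNA was amplified with Ovation RNA-Seq V2 and made into libraries with Nextera XT, per the labels' protocols. The authors deposited 1 table of 14531 entries with FPKM for 14 libraries, made with HISAT2 2.1.0, StringTie 1.3.4d and Cufflinks 2.2.1 (with Cuffdiff) on GRCm38.p6, per the submitters' processing notes. The authors' 7 ratio columns are deposited quotients of IP and input FPKM with the same diet and index (96379 of 96379 values equal within 0.001) and served only that check. Columns carry a diet, a fraction and an index from 0 to 3 that differs from the replicate numbers in the labels, and were mapped to their group alone. The labels do not say whether the IP and input of an index came from 1 lysate, and p-values measure the spread between libraries. Read depth is not given in the table, so no counting intervals were computed.

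Of 14519 symbols, 12349 had a mean of at least 1 FPKM over the 8 HFD libraries and were fitted on log2(FPKM + 1) with limma 3.58.1 (R 4.3.3, trended variance) on these libraries alone, with Benjamini-Hochberg adjustment over all of them and a threshold of 0.05. The change on the control diet and the difference between diets came from fits over the 14 libraries. Annotation (14506 entries matched) was GENCODE M21, and sequences were RefSeq. The fit was tested on simulated data of the IP and input comparison with 200 changed genes among 12349. It found 20 of 68 genes changed by log2 1, 49 of 67 by log2 2 and 62 of 65 by log2 3. Of 12149 unchanged genes it called 23. In the data 40.0% of genes passed, and the adjustment is stricter where fewer genes change. The simulated counts are therefore not the recovery in the data. Genes were named by rule: those with the largest changes and the smallest p whose groups did not overlap, up to 4 per list by p plus 2 members against its direction, the markers, genes with the highest IP level, and 10 chosen by their role. The gene lists and genes were chosen with earlier results of these data known. Alternatives changed the pseudocount, the filter, the scaling, library weights, the libraries fitted and the block of column index. Some genes are not reported here.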

Additional observations from a re-analysis of the deposited data

Results flagged for a closer look

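In 25 of 462 groups of 4 HFD libraries tested (5.41%), over named genes and the mitochondrial share, 1 library lay far outside the other 3, where chance gives about 1 in 20. Among the IP libraries, IP library 0 was high for Rps19 (441 FPKM), Ermn (7.89 FPKM), Gas5 (6921 FPKM), H2afz (269 FPKM) and H2afy (54.3 FPKM). IP library 2 was high for Ndufc1 (615 FPKM) and low for Psma5 (19.1 FPKM), Hbb-bt (12.8 FPKM) and Srprb (7.59 FPKM). Among the input libraries, input library 0 held 9 of the 25 values. It was high for the mitochondrial share (39.1%), mt-Nd1 (25648.5 FPKM), mt-Co1 (42070.2 FPKM), mt-Cytb (27483.5 FPKM) and Mtor (10.8 FPKM), and low for Snap25 (4522 FPKM), Vsnl1 (1116 FPKM), Vamp2 (416 FPKM) and Atp5mpl (62.2 FPKM). Input library 1 was low for Cox7b (92.6 FPKM), Cpe (385 FPKM), Ttr (15.6 FPKM) and Tcf7l2 (149.9 FPKM). Input library 2 was high for Srp9 (37.5 FPKM), and input library 3 was low for Ramp2 (10.8 FPKM) and Hbb-bt (0.823 FPKM).

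The antisense model Gm17122 was the single gene whose change differed between diets beyond the threshold, with a difference of log2 changes (high-fat minus control diet) of -5.95 ± 0.70 (limma, adjusted p = 0.0052). It changed by -3.09 ± 0.47 on high-fat diet and by 2.86 ± 0.53 on control diet. The next gene was Tlr3, a receptor for double-stranded RNA, named after its values were seen, with 13.7, 17.7, 9.37 and 11.3 FPKM in IP and 14.6, 8.88, 8.83 and 8.66 FPKM in input on high-fat diet, and 0.215, 1.43 and 1.10 FPKM in IP and 9.40, 8.57 and 11.01 FPKM in input on control diet. Its difference of 2.84 ± 0.47 did not pass (adjusted p = 0.12).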

How the results depend on the processing

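With equal nuclear sums the counts were 1655 higher and 4320 lower genes, and with a mean FPKM of at least 5, which leaves fewer genes to test, 2452 higher and 1377 lower. In the other alternatives that keep all libraries the counts stayed within 1.5 times those as deposited, at 2387 to 2958 higher and 1830 to 2994 lower. Leaving out each library gave 2219 to 3239 higher and 1555 to 2830 lower genes, and 4788 of the genes called with all libraries were also called without IP library 0. The number of genes that differed between diets was 1 to 115 when each of the 14 libraries was left out. The difference between IP and input in the mitochondrially encoded share of summed FPKM was -26.2 to -21.7 percentage points with 1 library left out, each with an exact permutation p of 0.0571, the smallest that 3 against 4 libraries allow. Some calls changed sign. Ncor1 changed by -0.39 with quantile normalization and -0.18 with equal nuclear sums, Hsp90ab1 by -0.56 and Hlf by -0.0659 with quantile normalization, and H1f0 by -0.0520 with equal nuclear sums. The cause was not tested. Of 225 named genes past the threshold, 189 kept direction and side of the threshold under each alternative that keeps all libraries, and 184 under those that leave one out as well. Among the calls lost, beside those given with their results, Homer1 (0.59), Nxph1 (0.55), Atp5b (0.24) and Idh3g (0.38) no longer passed with equal nuclear sums, and Srsf5 (0.33), Thy1 (0.03), Gabbr1 (0.07) and Gabbr2 (0.22) did not with quantile normalization. Deviations of IP and input libraries with the same index correlated at 0.0592, 0.0275, 0.0443 and 0.0260, under the limit of 0.1. With different indices the values ran from -0.0527 to 0.0405. The same index gave the highest value for input libraries 0, 1 and 2, and IP library 2 did for input library 3 (0.0405). Values this small do not settle whether the index pairs libraries, and the main fit left it out. With index as a replicate block, 2595 genes were higher and 1949 lower, 4409 of the calls were shared, 8 named genes no longer passed, and 1 gene differed between diets. Genes of low level and pools whose depth is unknown limit small changes. The simulation, with far fewer changed genes, does not give the recovery of such changes in the data.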

Other observations

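Of 30 genes of the translocon, signal recognition particle and signal peptidase, 9 were higher and 4 lower (30% and 13.3%, median -0.05, against 22.2% and 17.8% of all genes), with 2 lower without input library 2 or 3. With equal nuclear sums the median was -0.58, against -0.45 for all genes. Ost4, the smallest subunit of the oligosaccharyltransferase, stood at 932, 736, 1166 and 728 FPKM in the IP libraries, against 71.7, 56.4, 62.2 and 49.7 FPKM in the input libraries (change 3.85 ± 0.18 (adjusted p = 8.4e-07)). Srp19 and Srp9, proteins of the signal recognition particle, rose by 1.99 ± 0.17 and 1.39 ± 0.15, whereas Srprb, a subunit of its receptor, fell (-2.67 ± 0.34). Of 25 chaperones of the endoplasmic reticulum and genes of the unfolded protein response, 4 were higher and 3 lower (16% and 12%, both under the shares of all genes). Without input library 1, 2 or 3 the higher count was 2, and without an input library the lower count was 0 or 1. Calls over all genes were also fewer without an input library. Atf4, a transcription factor of the integrated stress response whose upstream reading frames control its translation, stood at 111, 90.8, 146 and 135 FPKM in IP and 16.6, 18.5, 18.8 and 16.6 FPKM in input (change 2.69 ± 0.17 (adjusted p = 3.2e-06)), and its groups did not overlap. Manf, a secreted neurotrophic factor of the endoplasmic reticulum, rose by 1.92 ± 0.23. Of 24 heat shock proteins and cytosolic chaperones, 7 were higher and 3 lower (median 0.19), with 6 lower without IP library 0, and with quantile normalization 3 were higher and 12 lower (median -0.50). Bag1, a co-chaperone, rose by 1.81 ± 0.14. The messages of the cytosolic HSP90 pair moved in opposite directions, with 103, 130.1, 127 and 113 FPKM in the IP libraries, against 213, 251, 266 and 267 FPKM in the input libraries for Hsp90aa1 (-1.07 ± 0.13, adjusted p = 0.00016) and 339.9, 368, 322 and 344 FPKM in IP and 242, 226, 217 and 223 FPKM in input for Hsp90ab1 (0.60 ± 0.11, adjusted p = 0.0018). With quantile normalization Hsp90ab1 fell (-0.56), and with equal nuclear sums it did not pass (0.04).

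Of 30 genes of the vacuolar ATPase and the lysosome, 12 were higher and 4 lower (median 0.47), with 2 lower without IP library 3 or input library 0, 2 or 3, and with quantile normalization 8 were higher and 11 lower (median -0.13). Besides Atp6v0c, the peripheral subunits Atp6v1e1, Atp6v1g1 and Atp6v1g2 rose by 1.52 ± 0.14, 1.68 ± 0.19 and 1.52 ± 0.17, and Atp6v0a1, a large membrane subunit, fell (-0.94 ± 0.26), with groups that overlapped. Of 20 clock genes, 4 were higher and 2 lower (20% and 10%, near or under the shares of all genes). Leaving out 1 library gave 7 higher (IP library 1), 4 lower (IP library 0 or 2) or 1 lower (input library 0, 1 or 2). Lower calls over all genes also rose without IP library 0 and fell without an input library. Dbp, a clock-controlled transcription factor, stood at 25.6, 31.7, 50.2 and 63.5 FPKM in the IP libraries, against 9.96, 7.16, 5.88 and 6.82 FPKM in the input libraries (change 2.30 ± 0.29 (adjusted p = 0.00018)), and the groups did not overlap. Its relative Tef went the other way, with 13.997, 5.50, 3.60 and 6.68 FPKM in IP and 26.6, 25.01, 21.3 and 21.4 FPKM in input (change -1.68 ± 0.33 (adjusted p = 0.0025)). Of 13 replacement histone genes, 4 were higher and none lower (median 0.48), with 2 higher without IP library 1 or any 1 input library. H2afz, which encodes the variant H2A.Z, rose by 2.59 ± 0.17 and H3f3a, one of the genes of H3.3, by 2.40 ± 0.29. Of the markers not described above, none of the 3 for tanycytes and ependyma passed, nor did the 1 for pituitary.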
